A study of Homo sapiens with 2 samples.

Results

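The ETS transcription factors described here are 10 genes: *SPI1*, which encodes PU.1, *ETS1*, *ETS2*, *ETV6*, *FLI1*, *ELF1*, *GABPA*, *ETV1*, *ETV4* and *ETV5*. They were taken by symbol from the authors' deposited table and joined by Entrez ID to the 25702 genes of the deposited count files. RNA was sequenced from asynchronous K562 cells, a BCR-ABL1-positive human erythroid leukemia line grown in serum-supplemented RPMI medium. The tyrosine kinase inhibitor cabozantinib (XL184), whose targets include MET, AXL and the VEGF receptors, was given to one culture at 1 µM for 48 h, and a second culture received the vehicle DMSO for the same time. With a single library for either culture (1 per group), the differences could not be checked in replicates or tested between conditions.

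ETS proteins share a DNA-binding domain, the ETS domain, that recognises a GGAA core, and much of their specificity comes from partner proteins and from signalling. PU.1 drives myeloid and B-cell genes and antagonises GATA1 in erythroid cells. ETV1, ETV4 and ETV5 form the PEA3 group, activators whose transcription is induced by ERK signalling and repressed by Capicua (CIC). ETS2 and ETS1 are direct ERK substrates, ETV6 (TEL) and ELF1 act in blood cells as a repressor and an activator, FLI1 drives megakaryocyte genes, and GABPA is the DNA-binding subunit of GABP, a regulator of nuclear genes for mitochondrial proteins.

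The cabozantinib library held 25505289 counts and the DMSO library 25025243. A gene was called measured at 1 CPM (counts for each 1000000 counts of the scaled library) or more in at least 1 library, which 12536 genes reached. It was called lower or higher when it differed by at least 1.5-fold, a log2 size of 0.58, and the 95% interval of its scaled count ratio (exact, Clopper-Pearson) did not include 1. These intervals cover counting error only. Under this rule 12.3% of measured genes were lower with cabozantinib and 8.15% were higher, or 1543 and 1022 genes, against 1824 and 757 when the libraries were scaled by total counts. At a size of 2-fold the shares were 5.76% lower and 2.71% higher. All 9 erythroid markers checked against the labelled line were measured, and 8 of them, *HBG1*, *TFRC* and *EPOR* included, were higher with cabozantinib.

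Of the 10 ETS genes 9 were measured, and 5 of these were lower with cabozantinib and 0 higher. The 5 were *SPI1*, *ETS1* and the whole PEA3 group, while *ETS2*, *ETV6*, *ELF1* and *GABPA* did not reach 1.5-fold. Over all measured genes 12.3% were lower and 8.15% higher. At 2-fold the counts of the set were also 5 lower and 0 higher, against 5.76% and 2.71% of all measured genes. *ETS1* passed the filter on low values through its DMSO library alone, so it could enter only as a lower gene. Of the 8 genes measured in both libraries 4 were lower, and their median log2 ratio was -0.73, against -1.09 over the 9 with *ETS1* and 0.01 over all measured genes. In RNA from whole cultures, fewer cells that express a gene and less of its RNA per cell cannot be told apart.

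**Figure D1:**
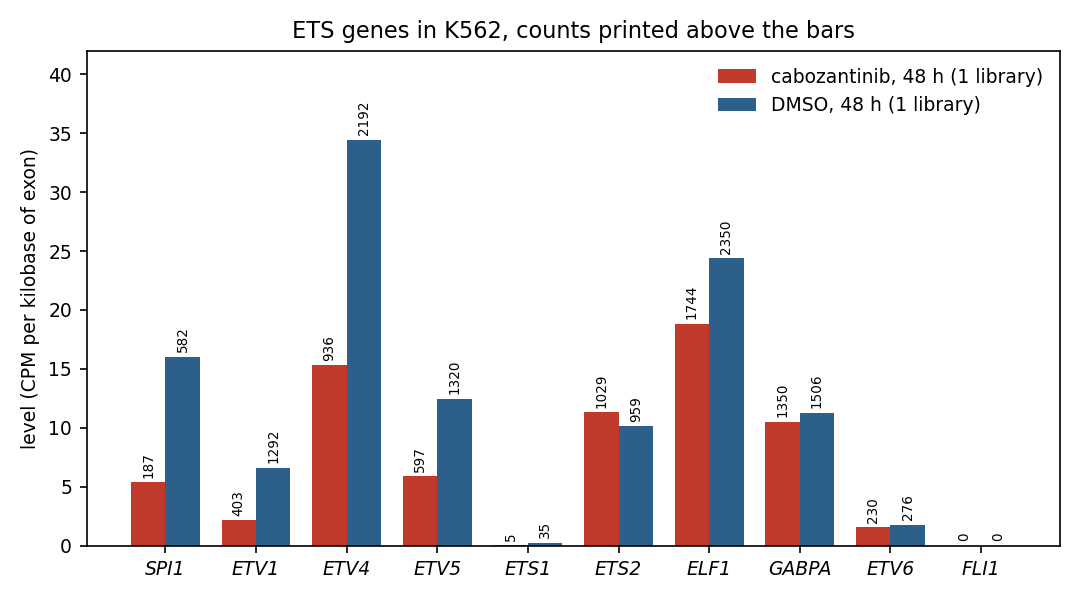
Level of each ETS gene in CPM per kilobase of exon length, cabozantinib (red) left of DMSO (blue), 1 library each, with the raw count above each bar. *ETV4* is the highest bar in DMSO at 34.5, and the red bars of *SPI1*, *ETV1*, *ETV4* and *ETV5* are well below their blue ones, whereas those of *ETS2* and *GABPA* are nearly level.

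*SPI1* (Entrez 6688; hg19 chromosome 11, 47376409 to 47400127, minus strand, 5 exon blocks in the deposited annotation) had 187 counts with cabozantinib and 582 counts in DMSO, or 7.55 and 22.6 CPM. It was 2.99-fold lower (95% counting interval 2.53 to 3.55), a log2 ratio of -1.58, and 286 of the 12536 measured genes (2.28%) had a lower log2 ratio. PU.1 has 2 close relatives in the family, SPIB, a factor of B and dendritic cells, and SPIC, a factor of iron-recycling macrophages. *SPIB* went the other way at a low level, with 39 counts with cabozantinib and 12 in DMSO, a log2 ratio of 1.72 (0.79 to 2.83), and it reached 1 CPM only with cabozantinib. The count of *SPI1* was therefore 4.79 times that of *SPIB* with cabozantinib and 48.5 times in DMSO, and their log2 ratios differed by -3.33 (-4.43 to -2.33). *SPIC* was at 0 counts with cabozantinib and in DMSO, a value that allows up to 3 counts per library.

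The PEA3 group was lower as a whole. *ETV1* (Entrez 2115; chromosome 7, 13930854 to 14031050, minus strand, 18 exon blocks) had 403 counts with cabozantinib and 1292 in DMSO, or 16.3 and 50.1 CPM. Its log2 ratio of -1.62 (-1.79 to -1.46) was the lowest in the set after *ETS1*. *ETV4* (Entrez 2118; chromosome 17, 41605211 to 41623762, minus strand, 14 exon blocks) had 936 and 2192 counts with cabozantinib and in DMSO, 2.25-fold lower (2.08 to 2.43). *ETV5* (Entrez 2119; chromosome 3, 185764106 to 185826901, minus strand, 13 exon blocks) had 597 counts with cabozantinib and 1320 in DMSO, 2.12-fold lower (1.93 to 2.35).

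Summed over the PEA3 group, the counts came to 1936 with cabozantinib and 4804 in DMSO, 2.39-fold lower (2.26 to 2.52). Within the group *ETV1* was lower by more than its relatives, beyond counting error. Its log2 ratio was below that of *ETV4* by -0.45 (-0.65 to -0.25) and below that of *ETV5* by -0.54 (-0.75 to -0.32), differences that do not depend on the scaling of the libraries. *ETV4* and *ETV5* differed by -0.08 (-0.26 to 0.10), an interval that includes no difference. The log2 ratios of *SPI1* and *ETV1* differed by 0.04 (-0.25 to 0.34), and that interval too includes no difference.

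Identical stretches between these genes, from which reads could be assigned to either, were short. Over the 45 pairs of the 10 genes, 2 pairs had an identical run of 20 or more bases between any of their GENCODE 29 transcripts. The longest was 33 bases between *ETV4* and *ETV5*, followed by 24 bases between *FLI1* and *ETV4*, and the longest between *ETV1* and *ETV5* was 18.

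**Figure D2:**
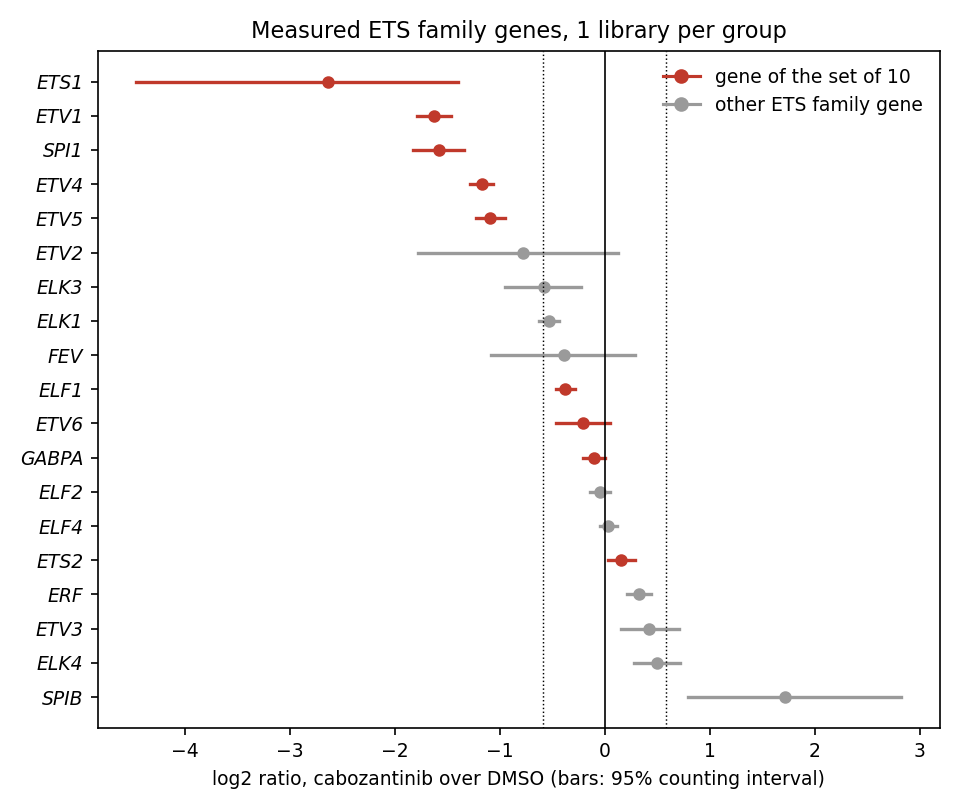
Log2 ratio, cabozantinib over DMSO, of the 19 measured genes of the ETS family, with exact 95% counting intervals; red marks the set described here, grey the other ETS genes, and dotted lines 1.5-fold. The intervals of *ETS1*, *ETV1*, *SPI1*, *ETV4* and *ETV5* lie wholly beyond the lower dotted line. *SPIB*, which reached 1 CPM with cabozantinib alone, is the only gene called higher.

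*ETS1* and *ETS2* encode closely related ERK-responsive factors, and their values differed. *ETS1* (Entrez 2113; chromosome 11, 128328656 to 128457453, minus strand, 11 exon blocks) had 5 counts with cabozantinib and 35 in DMSO. This is 0.20 and 1.36 CPM, 6.20-fold lower with a wide interval of 2.63 to 22.0. *ETS2* (Entrez 2114; chromosome 21, 40177849 to 40196879, plus strand, 10 exon blocks) had 1029 counts with cabozantinib and 959 in DMSO, a log2 ratio of 0.16 (0.03 to 0.29). It had the highest log2 ratio in the set, and the log2 ratio of *ETS2* exceeded that of *ETV5* by 1.25 (1.05 to 1.44).

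Of the remaining genes *ELF1*, an activator in lymphoid and erythroid cells, had the lowest log2 ratio. *ELF1* (Entrez 1997; chromosome 13, 41506055 to 41593508, minus strand) had 1744 counts with cabozantinib and 2350 in DMSO, a log2 ratio of -0.37 (-0.46 to -0.28). The interval excludes no change and also excludes a 1.5-fold difference. *ETV6* (Entrez 2120; chromosome 12, 11802788 to 12048336, plus strand) had 230 counts with cabozantinib and 276 in DMSO, a log2 ratio of -0.21 (-0.46 to 0.05). *GABPA* (Entrez 2551; chromosome 21, 27107329 to 27144771, plus strand) had 1350 and 1506 counts with cabozantinib and in DMSO, a log2 ratio of -0.10 (-0.21 to 0.01). The exons of *GABPA* overlap those of *ATP5PF* on the opposite strand by 561 bases, and reads in that stretch are uncertain, since the sources used here do not give the strand setting of the counting. *ATP5PF*, a subunit of ATP synthase, had 4441 counts with cabozantinib and 4240 in DMSO.

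*FLI1* (Entrez 2313; chromosome 11, 128562389 to 128683162, plus strand) was at 0 counts with cabozantinib and in DMSO, again allowing up to 3 counts per library, and no fold was computed. Its close relative *ERG* also had 0 counts in both. *FEV*, the other member of that group, had 33 counts with cabozantinib and 45 in DMSO.

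**Figure D3:**
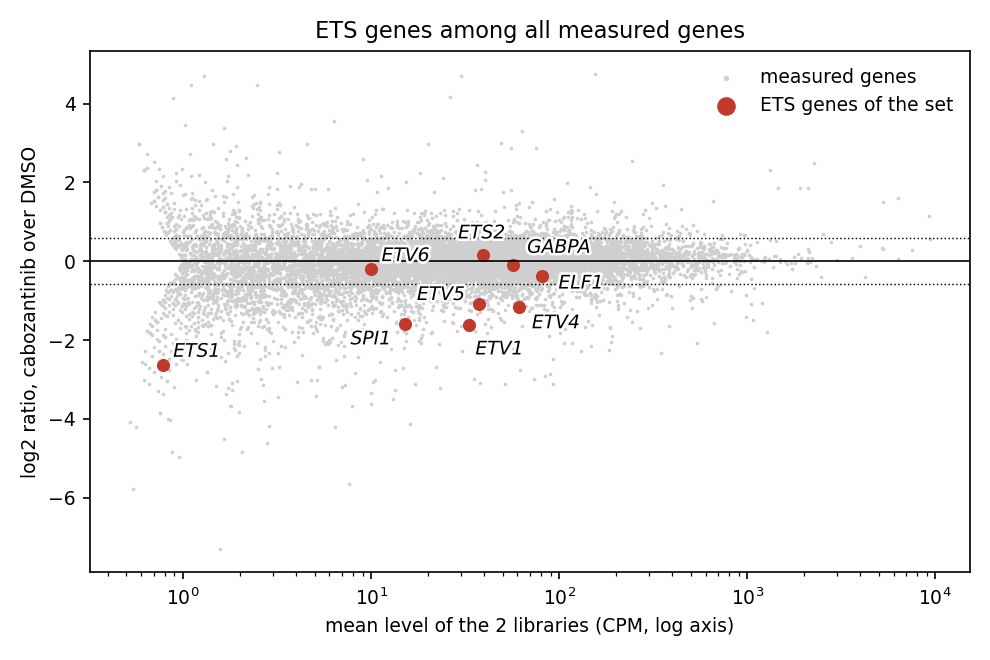
Log2 ratio, cabozantinib over DMSO, against the mean level of both libraries in CPM (log axis) for the 12536 measured genes (grey), with the 9 measured ETS genes in red and dotted lines at 1.5-fold. *ETV1*, *ETV4*, *ETV5* and *SPI1* lie below the lower dotted line at middling levels, and *ETS1* lies at the low-count edge.

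The authors' deposited table lists 9 of the ETS genes, all but *FLI1*, and scored 5 of them at 0.95 or above for the posterior probability that expression differs, as it did 4.66% of all its genes. In the authors' deposited table this probability was 1 for *SPI1* and *ETV1*, 0.9997 for *ETV4*, 0.998 for *ETV5* and 0.997 for *ETS1*. It was at most 0.0157, the value of *ELF1* in the authors' deposited table, for the other 4. The same libraries underlie these values, so they are not a second measurement.

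Upstream sequence was at hand for 5 of the 10 genes (*ETS2*, *ETV6*, *ELF1*, *GABPA* and *ETV1*), from RefSeq on GRCh38.p14. The 250 bases before the farthest upstream start are shown for *ETV1*, which was called lower, and for *ETS2* and *GABPA*, which were not. Capitals mark the ETS core GGAA and the longer ETS motif CCGGAAG, which contains it, and the CIC octamers TGAATGAA, TGAATGGA, TCAATGAA and TCAATGGA, all on either strand. Positions on GRCh38.p14 are chr7:13991426-13991675, minus strand, for *ETV1*, chr21:38804933-38805182, plus strand, for *ETS2* and chr21:25734722-25734971, plus strand, for *GABPA*.
ETV1: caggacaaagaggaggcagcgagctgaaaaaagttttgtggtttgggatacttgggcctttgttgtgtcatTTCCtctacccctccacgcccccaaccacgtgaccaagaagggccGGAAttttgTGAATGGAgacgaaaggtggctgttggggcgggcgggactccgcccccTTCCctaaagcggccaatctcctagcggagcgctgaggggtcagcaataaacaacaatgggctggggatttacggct
ETS2: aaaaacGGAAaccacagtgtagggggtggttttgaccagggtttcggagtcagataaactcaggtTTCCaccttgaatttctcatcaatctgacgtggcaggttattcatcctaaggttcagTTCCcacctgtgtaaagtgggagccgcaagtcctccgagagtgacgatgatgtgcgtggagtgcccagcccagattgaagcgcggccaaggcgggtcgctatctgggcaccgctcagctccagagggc
GABPA: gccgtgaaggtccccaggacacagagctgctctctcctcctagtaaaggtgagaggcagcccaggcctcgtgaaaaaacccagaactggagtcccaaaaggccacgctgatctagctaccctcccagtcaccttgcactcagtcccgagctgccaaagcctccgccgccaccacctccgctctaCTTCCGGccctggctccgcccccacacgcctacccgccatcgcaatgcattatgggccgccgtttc

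The *ETV1* window held 1 CIC octamer, TGAATGGA, from 125 to 118 bases before the start, and 3 GGAA cores. One of the 4 octamers stood in 3.33% of the 27326 windows taken the same way, and none was found in the *ETS2*, *GABPA*, *ELF1* or *ETV6* window. Of the windows of all 6 *ETV1* starts, 1 held it. The *GABPA* window held CCGGAAG on the reverse strand, from 66 to 60 bases before the start, as did 8.78% of windows in either direction. GGAA itself stood in 92.8% of windows. A match describes the letters and shows no binding.

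Compared per length, the order of the ETS genes differed between the libraries. With cabozantinib *ELF1* had the highest level of the set at 18.8 CPM per kilobase (18.0 to 19.7 from counting), followed by *ETV4* at 15.3, *ETS2* at 11.3, *GABPA* at 10.5, *ETV5* at 5.88, *SPI1* at 5.36, *ETV1* at 2.15, *ETV6* at 1.55 and *ETS1* at 0.036. In DMSO *ETV4* was first at 34.5 CPM per kilobase, followed by *ELF1* at 24.4, *SPI1* at 16.0, *ETV5* at 12.5, *GABPA* at 11.3, *ETS2* at 10.1, *ETV1* at 6.62, *ETV6* at 1.79 and *ETS1* at 0.25. Counting intervals of neighbours overlapped with cabozantinib for *ETS2* and *GABPA* and for *ETV5* and *SPI1*, and in DMSO for *ETV5* and *GABPA* and for *GABPA* and *ETS2*.

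The human ETS family has 28 genes. Of the 18 outside the set, 10 were measured, 0 were lower and 1, *SPIB*, was higher, around a median log2 ratio of -0.00. Over all measured genes 12.3% were lower and 8.15% higher. *SPIB* passed the filter on low values through its cabozantinib library alone, so it could enter only as a higher gene. With a filter of 5 CPM the higher count of these genes was 0. The lower count was 1 or 2 under each of the 4 other scalings. *ELK1* and *ELK3*, partners of serum response factor, had log2 ratios of -0.53 and -0.58, just short of 1.5-fold, while the third ternary complex factor, *ELK4*, had one of 0.50 (0.28 to 0.72). The repressor genes *ERF* and *ETV3* had log2 ratios of 0.33 (0.22 to 0.44) and 0.43 (0.15 to 0.70). *ELF2* and *ELF4*, relatives of *ELF1*, had log2 ratios of -0.04 and 0.03. *ETV2* had 16 counts with cabozantinib and 29 in DMSO, a log2 ratio of -0.78 whose interval of -1.78 to 0.13 includes no change.

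The make-up of the family level differed between the libraries. The PEA3 group made up 13.9% of the summed per-length level of the 28 genes with cabozantinib and 24.6% in DMSO, and *SPI1* made up 3.20% and 7.36% with cabozantinib and in DMSO. *ETV4* ranked 6 of the family with cabozantinib and 1 in DMSO. *ELF4* ranked 1 with cabozantinib and 4 in DMSO, and *ERF*, whose protein represses ETS sites until ERK exports it from the nucleus, made up 12.7% with cabozantinib and 7.80% in DMSO. These shares and ranks depend on the division by length. As shares of raw counts *ETV4* took 6.49% with cabozantinib and 11.5% in DMSO, where *ELF4* (12.9%), *ELF1* (12.3%) and *ELK1* (12.3%) took more, and *SPI1* took 1.30% with cabozantinib and 3.06% in DMSO. Because these are shares of one sum, some rise wherever others are lower.

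**Figure D4:**
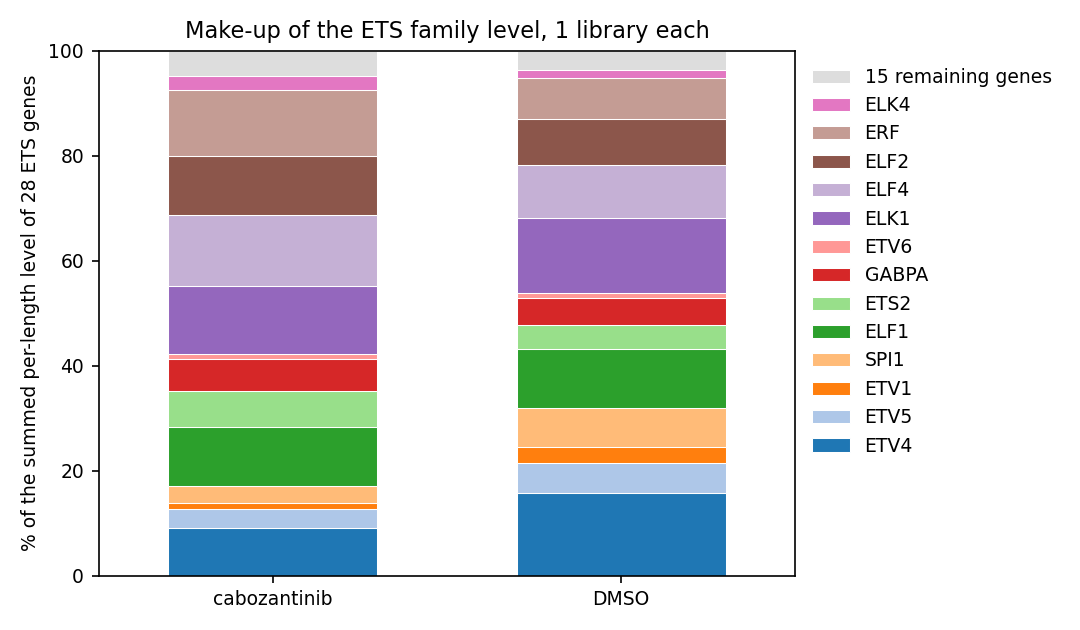
Share of each gene in the summed per-length level of the 28 ETS genes, cabozantinib left of DMSO, 1 library each, with the remaining genes pooled in light grey. The PEA3 genes at the bottom (*ETV4*, *ETV5*, *ETV1*) take 13.9% with cabozantinib and 24.6% in DMSO.

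Among 25 partners and regulators of ETS proteins 21 were measured, 4 of them lower and 1 higher, around a median log2 ratio of -0.01. The other 16 were not called. For comparison, 12.3% of all measured genes were lower and 8.15% higher. The partners *JUN*, an AP-1 subunit, *CEBPB*, a myeloid factor, and *RUNX1*, which binds beside ETS proteins in blood cells, had log2 ratios of -1.26, -1.18 and -0.96. *CBFB*, the subunit that stabilises RUNX1 on DNA, had one of -0.62. *ATXN1L*, which stabilises the repressor CIC, was the higher one, with 1157 counts with cabozantinib and 759 in DMSO, a log2 ratio of 0.66 (0.53 to 0.80). *CIC* itself had 2064 counts with cabozantinib and 1525 in DMSO, a log2 ratio of 0.49 (0.40 to 0.59) short of the 1.5-fold size. *GATA1*, the erythroid antagonist of PU.1, had one of 0.39.

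PU.1 target genes of myeloid cells were mostly below the filter in K562. Of 26, 8 had 0 counts in both libraries, 10 were detected below 1 CPM, and 8 were measured. Of those 8, 5 were lower and 1 higher, where 12.3% of all measured genes were lower and 8.15% higher. *BTK*, with 2022 counts with cabozantinib and 1995 in DMSO, and *FES* were not called, with log2 ratios of 0.08 and 0.42. *CORO1A*, an actin-binding protein of leukocytes, had 56 counts with cabozantinib and 312 in DMSO, a log2 ratio of -2.41 (-2.86 to -2.01). *CD68*, a lysosomal protein of macrophages, had 310 and 928 counts with cabozantinib and in DMSO (-1.52), and *LAPTM5*, a lysosomal protein of blood cells, 194 and 442 (-1.13). *CYBB*, the phagocyte oxidase subunit, was higher, with 93 counts with cabozantinib and 52 in DMSO. Of 8 monocyte and granulocyte markers 4 were at 0 in both libraries, among them *MPO* and *ELANE*, and 1, *LYZ*, was measured. Their summed level was 9.08 CPM with cabozantinib and 16.9 CPM in DMSO. Per kilobase of exon length it was 6.01 and 11.1 CPM, against the 5.36 and 16.0 CPM of *SPI1* with cabozantinib and in DMSO. *LYZ* made up most of the summed CPM of these markers, with 8.80 CPM with cabozantinib and 16.7 CPM in DMSO. *LYZ* was lower, on 218 and 430 counts with cabozantinib and in DMSO (-0.92), and is also among the 5 lower PU.1 target genes. Of 7 lymphocyte markers 2 were measured and called lower, 4 were detected below 1 CPM and 1, *MS4A1*, was at 0 in both libraries. Of the 2 lower, *CD3D* was measured in both libraries, with 59 counts with cabozantinib and 247 in DMSO, and the other in DMSO alone. The 4 below 1 CPM had, with cabozantinib and in DMSO, 2 and 7 counts (*CD3E*), 7 and 9 (*CD3G*), 2 and 1 (*CD2*) and 0 and 1 (*CD79A*). Of 6 fibroblast and epithelial markers 3 were measured. *COL1A2* was lower, on 16 and 86 counts with cabozantinib and in DMSO, and reached 1 CPM in DMSO alone. *COL1A1* was not called, on 63 and 76 counts with cabozantinib and in DMSO, a log2 ratio of -0.21 (-0.72 to 0.29). The epithelial marker *EPCAM* made up most of the summed level of this list, with 86.1 of 89.4 CPM with cabozantinib and 70.4 of 76.8 CPM in DMSO, a log2 ratio of 0.29 (0.20 to 0.38). The part of other cell types in the ETS values was not tested.

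Of 16 ERK and CIC output genes 11 were measured, 2 of them lower and 1 higher, around a median log2 ratio of -0.24. The other 8 were not called, and the shares over all measured genes were 12.3% lower and 8.15% higher. *SPRY4*, a feedback inhibitor of ERK signalling, had 382 counts with cabozantinib and 1005 in DMSO, a log2 ratio of -1.34 (-1.51 to -1.17). *PHLDA1* was lower on 19 and 42 counts with cabozantinib and in DMSO, but it reached 1 CPM in DMSO alone and so could only be called lower. Without it, under a filter of 5 CPM, the lower count of this list was 1. *FOSL1*, an AP-1 subunit, was higher, with 408 counts with cabozantinib and 254 in DMSO. Of 18 mitochondrial target genes of GABP all were measured and 0 were lower or higher. The median log2 ratio there was -0.04. Of 10 megakaryocyte target genes of FLI1 6 had 0 counts in both libraries, and the 1 measured, the integrin gene *ITGA2B*, was lower with a log2 ratio of -1.13.

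**Figure D5:**
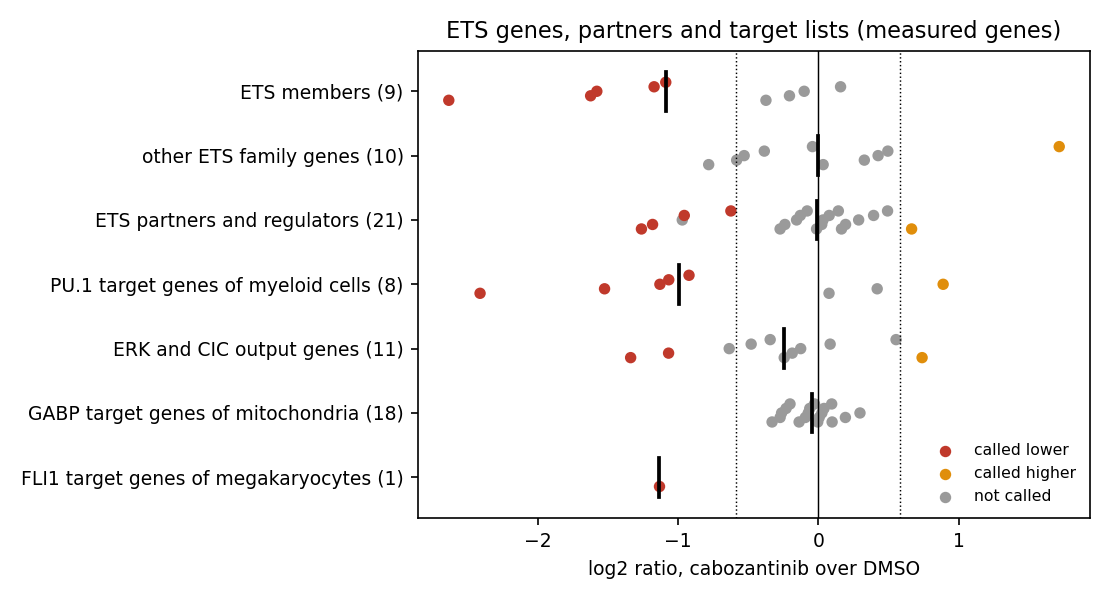
Log2 ratio, cabozantinib over DMSO, of the measured genes of each list (number in brackets), with a black bar at the list median, dotted lines at 1.5-fold, red for genes called lower, orange for genes called higher and grey for the rest. The GABP target genes lie within 1.5-fold on both sides, while 5 of 8 PU.1 target genes are red. Over all measured genes 12.3% were called lower.

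The genes most like *SPI1* were taken as the 3 protein-coding genes with the nearest log2 ratio among 1709 whose mean CPM was within 1.5-fold of its own. With 2 libraries likeness is this one difference. They were *HLA-E*, *SH3BGR* and *ARHGEF6*, within 0.03 of the log2 ratio of *SPI1*, and 25 of the 1709 were at or below it. The genes most like *ETV1*, among 2439 of similar level, were *DNAJC12*, *FMNL1* and *TPM4*, within 0.05 of its log2 ratio, and 12 of the 2439 were at or below it.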

How the data were processed

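Raw counts per Entrez gene were deposited as 1 file for either library. Alignment was by Rsubread on hg19 per the file headers, and hg19 and GRCh37 appear in the submitters' processing notes. Counting was by featureCounts, as the names of the deposited files have it. The sources used here do not give its version, strand setting or handling of multi-mapped reads. The exon length in bases is deposited beside the counts. The authors' deposited table gives posterior probabilities, a score from 0 to 1, and a fold ratio. That ratio runs as cabozantinib over DMSO: its log2 exceeded the unscaled log2 ratio of the labelled counts by 0.0426 to 0.0544 across 10269 genes holding 100 counts or more in both libraries. A further 4 value columns of that table name no sample and were left out.

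From the counts, libraries were scaled with TMM factors (edgeR 4.0.16, R 4.3.3), 0.971 for cabozantinib and 1.03 for DMSO. Log2 ratios used a pseudocount of 0.5. Intervals on ratios and on levels (exact Poisson) cover counting error only. Intervals on differences between genes are exact conditional odds ratio intervals. Calculations used Python 3.11.15, numpy 2.4.6, scipy 1.17.1 and pandas 2.3.3. The calls were also run on simulated counts that held counting error only, so that check could not cover differences between cultures. All 153 list entries were matched, 4 of them through older symbols. The members and lists were chosen with earlier results of these data known. Text names all 10 ETS genes, the measured ETS family genes, up to 3 genes each way per list by the bound nearest no change, and the genes nearest to *SPI1* and *ETV1*. *BTK*, *FES*, *CBFB*, *CIC*, *EPCAM*, *GATA1*, *SPIC*, *ERG* and *ATP5PF*, and the markers at 0, fall outside that rule and were chosen after their values were seen. The same holds for *COL1A1*, *CSF3R*, *ITGAM*, *ITGAX*, *CD3E*, *CD3G*, *CD2* and *CD79A*. One marker is not reported here.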

Additional observations from a re-analysis of the deposited data

How the results depend on the processing

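The direction of the 9 detected ETS genes held under all 7 alternatives, which were scaling by total counts, by DESeq2 1.42.0 size factors, by the upper quartile and by totals without globin and mitochondrial genes, pseudocounts of 1 and 0.1, and the authors' deposited fold. The log2 ratio ranged from -1.66 to -1.58 for *SPI1*, from -2.73 to -2.53 for *ETS1*, from -1.71 to -1.62 for *ETV1*, from -1.25 to -1.17 for *ETV4*, from -1.17 to -1.09 for *ETV5* and from 0.07 to 0.16 for *ETS2*. The 5 lower genes stayed 5 at a size of 2-fold, where 5.76% of measured genes were lower, and were 4 with a filter of 5 CPM, which *ETS1* does not reach. That filter moved the median of the set to -0.73. Of the other ETS family genes 2 were lower under scaling by total counts and 1 under each of the other 3 scalings and without a filter, against 0, and 0 were higher with the 5 CPM filter. Their median turned to 0.03 with that filter, and that of the partners to 0.01. The higher count of partners was 0 under total counts and at 2-fold, against 1. Their lower count was 2 at 2-fold and 5 under each of the 4 other scalings, against 4. The lower count of ERK and CIC output genes was 1 with the 5 CPM filter, against 2. Without a filter on low counts 8 of the 26 PU.1 target genes were lower, against 5 of the 8 measured. The added genes, *CSF3R*, *ITGAM* and *ITGAX*, were below 1 CPM in both libraries. They had 1, 4 and 0 counts with cabozantinib and 18, 20 and 7 in DMSO. Over all 25702 genes 1844 were lower without a filter. Over all measured genes the lower count was 722 of 12536 at 2-fold and 1022 of 10488 with the 5 CPM filter, against 1543 of 12536. Leaving out a library was not possible with 1 per group. No paired analysis was possible because each group holds 1 library. Depth limits *ETS1*, *SPIB* and most PU.1 and FLI1 target genes, which had few or 0 counts.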
